A study of Rattus norvegicus with 192 samples.

Results

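Dbp encodes a transcription factor of the PAR bZIP family that carries circadian signals from the clock to its output genes. Libraries of the rat nucleus accumbens core were ranked by their Dbp level, and the 37 libraries with the highest levels (high-Dbp) were compared with the 37 with the lowest (low-Dbp). The 74 libraries were thus chosen by a measured value, the Dbp level in CPM (counts scaled to a library total of 1000000), among 147 ranked libraries of 159 in the table. The other 12 libraries had less than 100 CPM of Drd1, the D1 dopamine receptor that marks striatal projection neurons, and were left out. Their highest Drd1 level was 20.0 CPM, and the lowest among the libraries kept was 154 CPM.

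Every library held polyA RNA of the nucleus accumbens core from an outbred heterogeneous stock rat, and each carried its own rat identifier. The labels name no treatment, genotype, sex, age, time of day or sequencing batch, so neither group stands for a labelled condition or a known hour. Of 192 labelled libraries, 33 carried a removal note and were not analysed here. The labels divided the libraries by the format of the identifier and by a note. The note, in some libraries, gave an original label from before a genotype mismatch fix. The high-Dbp group held 20 libraries with an identifier starting with E21 and 14 with an all-digit (numeric) identifier, all without this note. It also held 1 starting with AA1, 1 starting with E21 with the note and 1 of another format with the note. The low-Dbp group held 16 E21 and 17 numeric identifiers without the note and 4 starting with E21 with it. Below, E21 means identifiers without the note. The 2 main formats were not divided unequally between the groups beyond chance (Fisher's exact test, two-sided, p = 0.466). Total expected counts were 25.5 ± 8.58 M (SD, n = 37, M being 1000000) in high-Dbp and 24.5 ± 4.60 M (SD, n = 37) in low-Dbp libraries (permutation test, two-sided, p = 0.564).

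The mammalian clock is a feedback loop of transcription factors. Clock, or its relative Npas2, pairs with Bmal1 and activates genes with E-box elements, among them the Period (Per) and Cryptochrome (Cry) genes, Ciart, Bhlhe40, Bhlhe41, Nr1d1, Nr1d2 and Dbp, whose products include the repressors that close the loop. Nr1d1 and Nr1d2 (the REV-ERB receptors) repress Bmal1 through elements that the ROR receptors activate, and Dbp, Tef and Hlf activate genes with D-box elements that Nfil3 represses. In striatum, as in other tissues outside the master clock, these genes cycle with the day, so that Bmal1 is high when Dbp and Nr1d1 are low.

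Sequences of 250 bases before the transcription start are shown for 3 repressor genes that rose (Ciart, Bhlhe41, Nr1d1), for the activator Bmal1, which fell, and for Per2, a marker of clock phase that did not pass the test. They were read from RefSeq promoter windows of the rat assembly GRCr8, 5′ to 3′ on the strand of the gene. Capitals mark the E-box CACGTG, the E-box variant CACGTT, which reads AACGTG on the other strand, the D-box TTATGTAA and the REV-ERB and ROR element TAGGTCA.
Ciart, chr2:186112247-186112496, minus strand: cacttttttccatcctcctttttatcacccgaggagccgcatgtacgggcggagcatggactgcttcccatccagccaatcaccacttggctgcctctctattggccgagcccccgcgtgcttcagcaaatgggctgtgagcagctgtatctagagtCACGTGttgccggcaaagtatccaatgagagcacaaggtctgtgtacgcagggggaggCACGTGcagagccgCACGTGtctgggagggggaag
Bhlhe41, chr4:180569356-180569605, minus strand: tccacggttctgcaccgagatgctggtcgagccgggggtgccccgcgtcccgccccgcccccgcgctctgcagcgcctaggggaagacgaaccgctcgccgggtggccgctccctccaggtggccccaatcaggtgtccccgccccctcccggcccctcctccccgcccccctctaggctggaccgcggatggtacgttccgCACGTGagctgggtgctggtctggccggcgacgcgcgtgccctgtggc
Nr1d1, chr10:84231813-84232062, minus strand: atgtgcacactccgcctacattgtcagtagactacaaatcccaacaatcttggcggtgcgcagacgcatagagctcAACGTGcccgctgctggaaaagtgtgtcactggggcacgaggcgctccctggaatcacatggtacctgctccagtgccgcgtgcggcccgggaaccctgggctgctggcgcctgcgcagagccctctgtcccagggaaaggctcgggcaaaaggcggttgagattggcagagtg
Bmal1, chr1:176766078-176766327, plus strand: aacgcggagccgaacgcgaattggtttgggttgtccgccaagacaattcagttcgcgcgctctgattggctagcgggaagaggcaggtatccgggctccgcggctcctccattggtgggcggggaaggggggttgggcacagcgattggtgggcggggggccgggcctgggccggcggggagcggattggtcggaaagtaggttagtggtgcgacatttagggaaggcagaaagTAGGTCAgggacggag
Per2, chr9:99496994-99497243, minus strand: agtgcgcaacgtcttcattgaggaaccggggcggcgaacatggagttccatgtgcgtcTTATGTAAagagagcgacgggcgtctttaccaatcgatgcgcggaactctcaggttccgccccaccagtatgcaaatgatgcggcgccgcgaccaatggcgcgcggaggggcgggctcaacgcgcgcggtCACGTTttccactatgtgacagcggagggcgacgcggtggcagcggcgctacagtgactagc
The Ciart window held CACGTG at 3 places, beginning 93, 35 and 21 bases before the start, and the Bhlhe41 window held it once, at 48. Across all 33469 rat windows of this length, 5.59% held CACGTG on either strand. It was found in 4 of the 18 clock genes with a window, the other two being Bhlhe40 and Tef. The Nr1d1 window held AACGTG at 174 bases, a form found in 4.07% of windows, and the Bmal1 window held TAGGTCA at 16 bases, found in 2.26%. The Per2 window held CACGTT at 62 bases and TTATGTAA, found in 0.828% of windows, at 192. The E-box variant was also in the windows of Cry2, which was called lower, and Bmal2. The windows of Dbp and of Nr1d2, which rose, held none of the forms searched. The other forms searched on both strands, the D-box TTACGTAA (0.108% of windows) and the REV-ERB and ROR element TGGGTCA (3.44%), were in none of the clock windows. Of the 18 windows, 7 began at the gene start given with the deposited values, and that of Nr1d1 is one of them. Those of Ciart, Bhlhe41, Bmal1 and Per2 did not, so positions in them count from a different start. Nr1d1 had 2 windows, and a single one is shown. A match is a run of letters, and whether a factor bound there was not measured.

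Dbp itself lay between 131 and 170 CPM in low-Dbp libraries (median 157) and between 219.5 and 282 CPM in high-Dbp libraries (median 231). Mean levels were 156 ± 11.0 CPM (SD, n = 37) and 233 ± 13.7 CPM (SD, n = 37), a ratio of 1.49. The low-Dbp library nearest the boundary had 170.1 CPM and the next library outside the group 173.6, while the values at the upper boundary were 219.5 inside and 219.2 outside. Dbp was not tested, since it chose the groups. It varied without a gap, and the groups are the ends of one range.

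Some high-Dbp libraries stood apart from the rest in genes that are not clock genes. The first principal component of the tested genes, with the clock lists left out, held 26.8% of the variance over the 147 libraries and had a Pearson r of 0.39 with log2 Dbp. On it, 15 of the 37 high-Dbp libraries lay above every low-Dbp library, and 14 of these 15 had an E21 identifier. The upper fence (upper quartile plus 1.5 interquartile ranges) was passed by 8 libraries, of which 6 were high-Dbp, 2 of the 73 libraries in between and none low-Dbp. Results are therefore also given without them, leaving 31 high-Dbp libraries, and with the first 10 components as covariates. Both alternatives were chosen after the data were examined, and the components were computed from the libraries that they adjust.

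Between the groups, the clock repressors Ciart, Nr1d1, Nr1d2 and Bhlhe41 and the Dbp relative Hlf rose, and the activator Bmal1 fell. On the log2(CPM + 1) scale used for all differences here, Ciart was higher by 0.63 (SE 0.058), Nr1d1 by 0.36 (SE 0.038), Bhlhe41 by 0.34 (SE 0.043), Hlf by 0.23 (SE 0.047) and Nr1d2 by 0.20 (SE 0.046) in high-Dbp libraries. Rorb was lower, at -0.46 (SE 0.11), as were Bmal1 at -0.31 (SE 0.049), Clock at -0.29 (SE 0.056), Npas2 at -0.13 (SE 0.040) and Cry2 at -0.08 (SE 0.031). Per1, Per2, Per3, Cry1, Bhlhe40, Rora, Nfil3 and Tef did not pass the threshold of limma's moderated test (Benjamini-Hochberg adjusted p under 0.05 over 15326 genes). The count of 10 of 18 tested clock genes called, 5 in each direction, stood beside 49.8% of all genes called (21.2% higher and 28.6% lower), so the count itself says nothing about the clock. Of all genes called 42.5% were higher, but 50.3% after scaling by median of ratios and 52.9% after normalization by quantiles. The ranks do differ: by p, Ciart had rank 1 of 15326 genes, Nr1d1 rank 3 and Bhlhe41 rank 10, while Per2 had rank 14610. Of the named markers of clock phase, Nr1d1 and Bmal1 thus went in opposite directions, while Per2, with a difference of -0.01 (SE 0.058), did not pass the test. The libraries are therefore called by their Dbp level and not by a phase.

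Among the repressor genes, Ciart, a repressor of the Clock and Bmal1 pair, ran from 4.07 to 9.16 CPM in low-Dbp libraries (median 7.24) and from 7.05 to 19.7 CPM in high-Dbp libraries (median 11.4). The groups overlapped, but 31 of the 37 high-Dbp libraries were above the highest low-Dbp library (limma adjusted p = 8.37e-13). Nr1d1 ran from 65.1 to 103 CPM (median 84.1) in low-Dbp and from 87.5 to 141 CPM (median 109.6) in high-Dbp libraries (limma adjusted p = 8.74e-11). All 37 high-Dbp libraries lay above the low-Dbp median. Bhlhe41, which competes for E-box elements, ran from 105 to 165.5 CPM (median 138) and from 124 to 219 CPM (median 174), with 26 high-Dbp libraries above every low-Dbp library (limma adjusted p = 3.10e-08). Nr1d2 ran from 65.8 to 105 CPM (median 81.1) and from 52.6 to 117 CPM (median 98.8, limma adjusted p = 0.000241). Its lowest values were in the high-Dbp group, and so were its highest.

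The Period genes, which repress the loop with their Cry partners, had close medians in both groups and wider ranges in the high-Dbp one. Per2 ran from 20.3 to 36.2 CPM (median 26.4) in low-Dbp libraries and from 12.7 to 35.5 CPM (median 26.6) in high-Dbp ones (limma adjusted p = 0.884). For Per1 the medians were 81.1 and 82.8 CPM, with ranges of 57.3 to 109.5 and 34.7 to 124, and for Per3 46.7 and 47.4 CPM, with ranges of 39.7 to 60.5 and 24.1 to 70.8. Cry1 ran from 16.1 to 29.5 CPM (median 22.4) and from 17.0 to 27.8 CPM (median 20.7), a difference of -0.08 (SE 0.042, limma adjusted p = 0.108). The call of Cry2 (medians 133 and 127 CPM) ended with median-of-ratios scaling, at -0.04 (limma adjusted p = 0.183), and with normalization by quantiles. Bhlhe40 had medians of 26.8 and 30.2 CPM and a difference of 0.09 (SE 0.082).

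**Figure D1:**
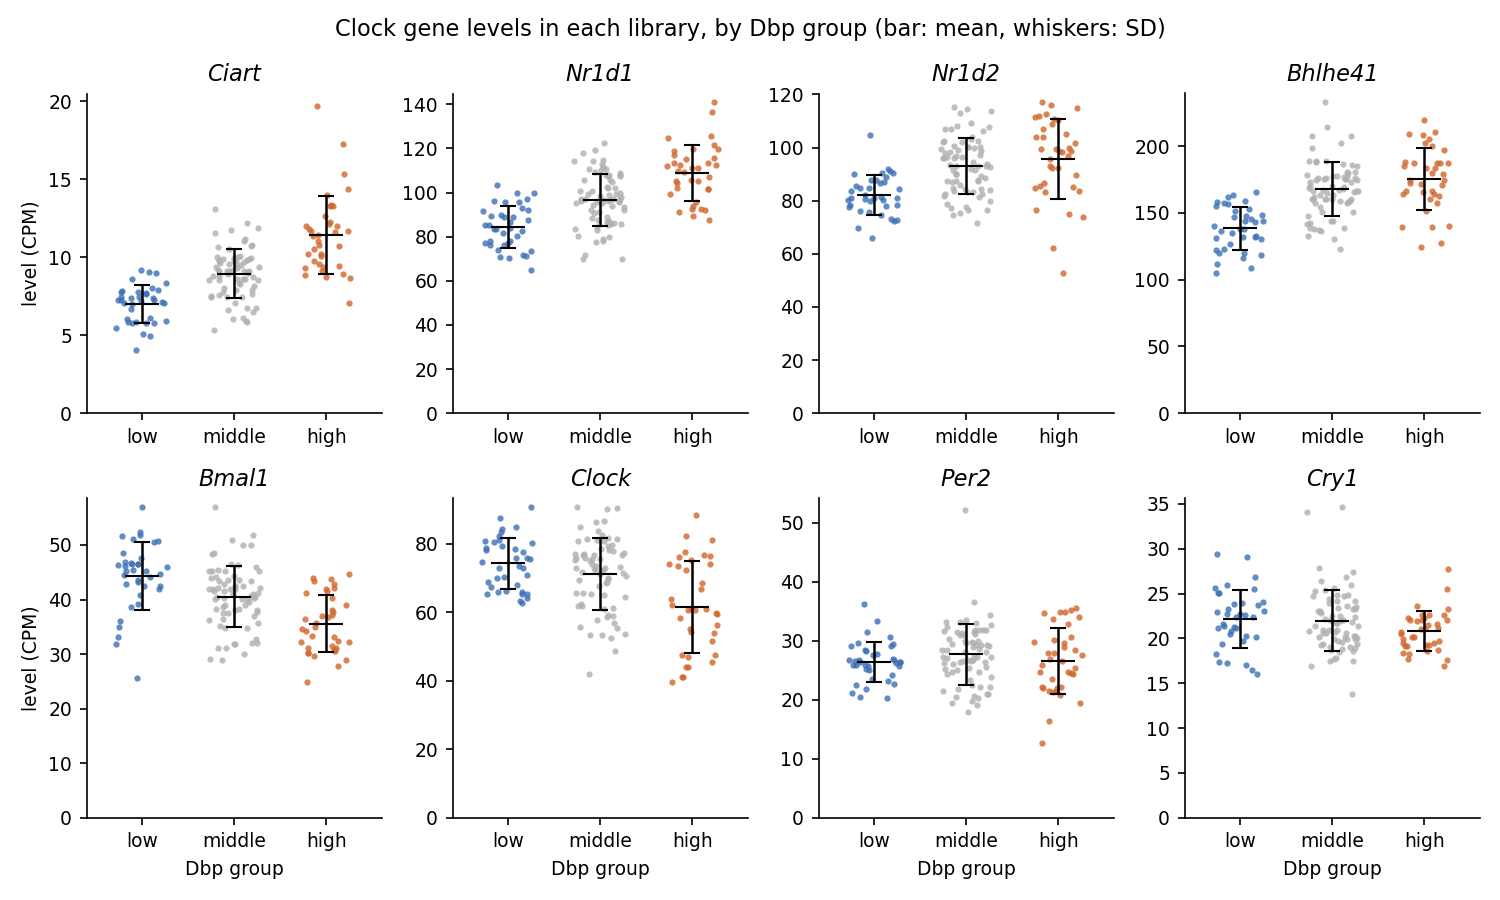
Level in CPM of 8 clock genes in each of 147 libraries, by Dbp group (37 low, 73 middle, 37 high); each point is a library, the bar is the group mean and the whiskers are its SD. Ciart, Nr1d1 and Bhlhe41 step up from low to middle to high and Bmal1 steps down, while the groups overlap fully for Per2.

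Among the activators, Bmal1 ran from 25.7 to 56.9 CPM (median 45.3) in low-Dbp libraries and from 24.9 to 44.6 CPM (median 34.9) in high-Dbp libraries (limma adjusted p = 3.56e-06). All 37 high-Dbp libraries were below the low-Dbp median, while 3 low-Dbp libraries were below the high-Dbp median. Clock ran from 62.6 to 90.6 CPM (median 74.7) and from 39.5 to 88.3 CPM (median 60.6, limma adjusted p = 3.59e-05), so that the high-Dbp group reached much lower but also held libraries as high as the low-Dbp group. Npas2 had medians of 125 and 118 CPM (limma adjusted p = 0.00571), and its call ended with median-of-ratios scaling, at -0.07 (adjusted p = 0.104). Rorb, a ROR receptor, had medians of 6.18 and 3.81 CPM and Rora 16.1 and 16.4 CPM. Nfil3, the opponent of Dbp at D-boxes, had medians of 9.18 and 8.63 CPM (limma adjusted p = 0.0883). Bmal2 was under a mean of 1 CPM and was not tested.

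Of the relatives of Dbp, Hlf ran from 96.7 to 164 CPM (median 129.8) and from 112 to 187 CPM (median 145, limma adjusted p = 5.64e-05). Tef, at medians of 456 and 476 CPM, did not pass (0.07, SE 0.043, limma adjusted p = 0.183). It did pass with median-of-ratios scaling, at 0.09 (adjusted p = 0.0332).

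Without the 8 libraries past the fence, the genes called fell from 49.8% to 33.5% of all genes (15.5% higher and 18% lower), and 11 of 18 clock genes were called, 7 higher and 4 lower. Bhlhe40 (0.20, SE 0.057, limma adjusted p = 0.00548), Tef (0.12, SE 0.037, limma adjusted p = 0.00808) and Nfil3 (-0.22, SE 0.084, limma adjusted p = 0.0343) then passed, while Cry2 and Npas2 no longer did. Ciart at 0.58, Nr1d1 at 0.37, Bhlhe41 at 0.37 and Bmal1 at -0.29 stayed within 1 SE of their values over all libraries, while Nr1d2 moved from 0.20 to 0.28. Per2 was at 0.08 (SE 0.048, limma adjusted p = 0.191).

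With the first 10 components as covariates, 154 genes were called, which was 1% of those tested (0.411% higher and 0.594% lower), and 11 of the 18 clock genes were among them. The components were computed from the tested genes other than the clock lists, so the adjustment was fitted to those genes and not to clock genes. The clock count and ranks in fits with components therefore cannot be weighed against the share of all genes called. For genes outside the clock lists, a call that ended with the components is no separate result either. Nr1d2 (0.36, SE 0.027, limma adjusted p = 2.03e-16), Bmal1 (-0.44, SE 0.035, limma adjusted p = 2.98e-15), Ciart (0.60, SE 0.061) and Nr1d1 (0.40, SE 0.041) had the 4 smallest p-values of all genes. The Period genes then rose: Per1 by 0.27 (SE 0.058, limma adjusted p = 0.00625), Per2 by 0.21 (SE 0.049, limma adjusted p = 0.0153) and Per3 by 0.19 (SE 0.034, limma adjusted p = 0.000213). Cry1 fell, at -0.24 (SE 0.043, limma adjusted p = 0.000252), the opposite direction to its Period partners. Clock at -0.06 (SE 0.024, limma adjusted p = 0.214), Npas2 at -0.04 and Rorb at 0.03 (SE 0.087) were no longer called. With the first 2 components alone, 66 genes were called (0.431%), of which 44 were also called with 10. Among them were 11 clock genes, 8 higher and 3 lower, but not the same ones. Per1 was not called with 2 components (0.15, limma adjusted p = 0.350). Nfil3 was called with 2 (-0.41, limma adjusted p = 0.00636) and not with 10 (limma adjusted p = 0.0732). The Per calls thus depended on the components, while those of Ciart, Nr1d1, Nr1d2, Bhlhe41, Bmal1 and Hlf held in all 4 of these fits. The 4 fits share libraries. Within single identifier formats not all of these calls held. Hlf was not called in the numeric format (0.21, SE 0.071, limma adjusted p = 0.166) and was called in E21 (0.21, SE 0.067, limma adjusted p = 0.0106). Bmal1 was not called in the numeric format, nor Nr1d2 in E21.

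**Figure D2:**
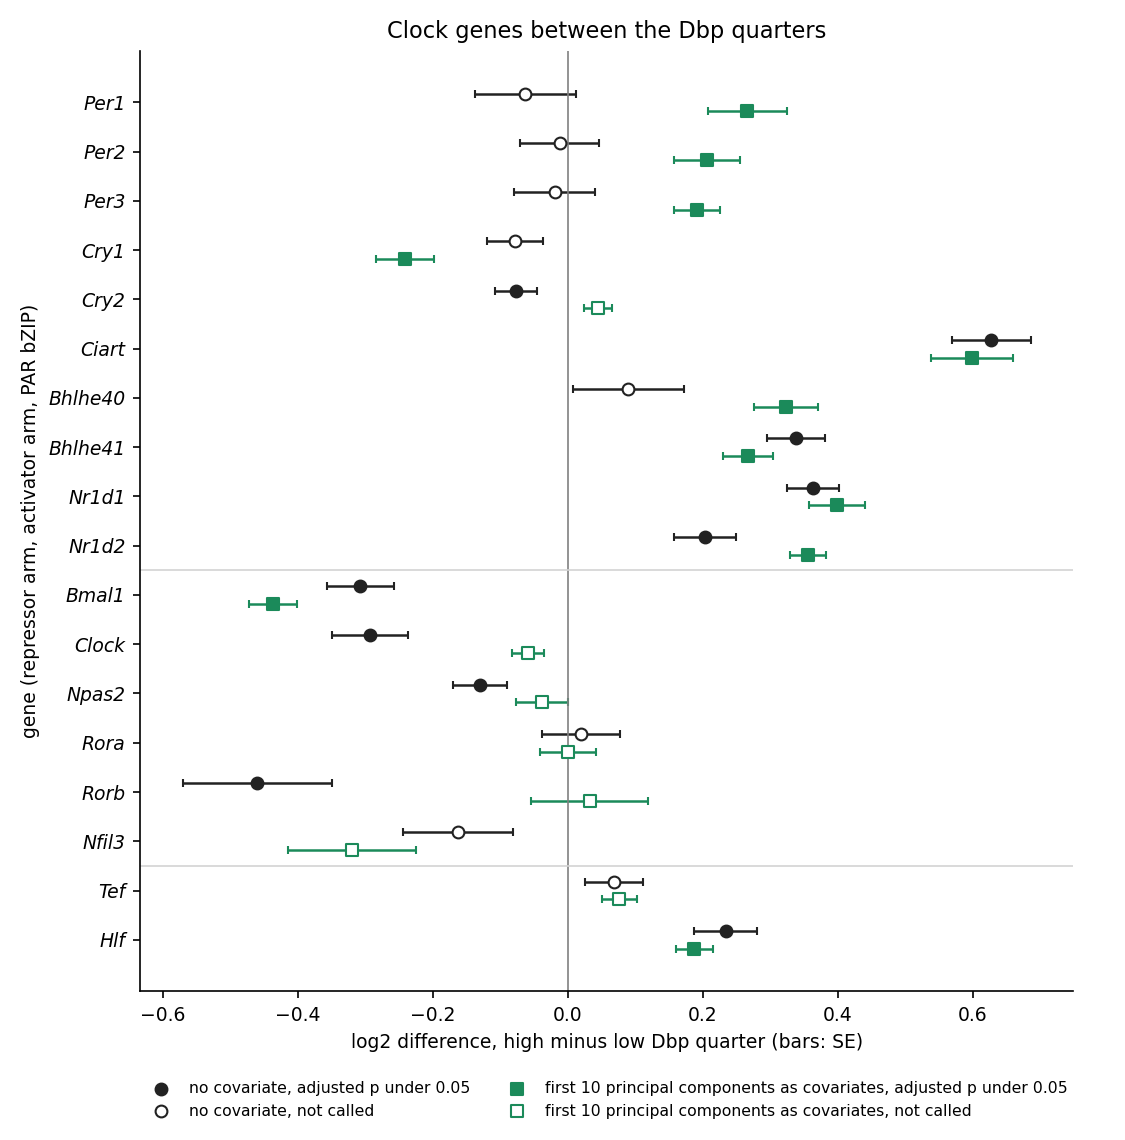
Log2 difference of each tested clock gene between 37 high-Dbp and 37 low-Dbp libraries (x axis, bars are SE), without covariates and with the first 10 principal components as covariates; filled symbols passed limma's threshold. Per1, Per2 and Per3 move from about 0 to between 0.19 and 0.27, Cry1 moves to -0.24, and Clock and Rorb move from -0.29 and -0.46 to near 0.

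The clock genes differed in how far they followed the first component over the 147 libraries, which is a description with no test. Clock had a Pearson r of -0.93 with it, Per3 -0.73, Cry2 -0.72, Per1 -0.61, Per2 -0.60 and Rorb -0.59, while Bhlhe41 stood at -0.02, Cry1 at -0.07 and Nr1d1 at 0.21. Dbp itself was at 0.39, on the other side from Clock and the Period genes. With log2 Dbp, r was 0.78 for Ciart, 0.69 for Nr1d1, 0.57 for Bhlhe41, 0.47 for Hlf, 0.40 for Nr1d2, -0.49 for Bmal1 and -0.03 for Per2. On the residuals of the 10 components these became 0.78, 0.80, 0.61, 0.61, 0.87, -0.79 and 0.34.

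The identifier formats were compared because they may stand for batches. Within the numeric format (14 high-Dbp and 17 low-Dbp libraries) only 40 genes were called, 0.261% of those tested (0.144% higher and 0.117% lower), and within E21 (20 and 16) 7080 genes, 46.2% (19.6% higher and 26.6% lower). Of the 40, 33 were also called in E21. Within the numeric format 4 clock genes were called, all higher: Ciart (0.55, SE 0.075), Nr1d2 (0.31, SE 0.051), Nr1d1 (0.33, SE 0.058) and Bhlhe41 (0.36, SE 0.067). Nr1d1 was at 0.33 (SE 0.051) in E21 as well, and Bmal1 at -0.30 (SE 0.089, limma adjusted p = 0.135) in the numeric and -0.29 (SE 0.057, limma adjusted p = 0.000274) in the E21 format. The test of the difference between formats called 2304 genes (15%), among them Per3, Clock, Npas2, Rorb and Nfil3. Clock was at -0.12 (SE 0.051) in numeric and -0.45 (SE 0.090) in E21 libraries, and Per3 at 0.20 (SE 0.065) and -0.21 (SE 0.094). Nr1d2 was called in the numeric format and not in E21 (0.11, SE 0.072), but the difference between formats was not called (limma adjusted p = 0.115). Along the first component, numeric high-Dbp libraries ran from -0.79 to 0.46 and E21 high-Dbp libraries from -1.13 to 3.98 (in SD over the 147 libraries).

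Dividing the libraries by Xist, the RNA of the inactive X chromosome, gave 19 of 37 high-Dbp and 17 of 37 low-Dbp libraries at 10 CPM or more (Fisher's exact test, two-sided, p = 0.816). The difference between the groups differed between the Xist sides for 1 gene (0.00652%), Tmem132d (0.63, SE 0.12, limma adjusted p = 0.0274), with 2823 genes at an unadjusted p under 0.05. No clock gene was called in that test.

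Relations between clock genes were also computed without Dbp, over all 147 libraries and 6 pairs of 4 genes. Nr1d1 and Bmal1 were inversely related (Pearson r = -0.51, Spearman rho = -0.53, permutation p = 1e-05 for both, the smallest that 100000 resamples can give, adjusted p = 3e-05). The r was -0.48 without the 2 libraries farthest in Nr1d1, -0.63 within the numeric format (n = 56), -0.44 within E21 (n = 76) and -0.37 within the 73 libraries of neither group. Bmal1 and Cry1 rose together (r = 0.49, rho = 0.54, permutation p = 1e-05, adjusted p = 3e-05), with r of 0.59 and 0.43 within the formats and 0.49 without the 2 farthest. Per2 and Cry1 had r = 0.36 and rho = 0.31 (permutation p = 2e-05 and 0.00011, adjusted p = 4e-05 and 0.00022), at 0.33 and 0.48 within the formats and 0.32 without the 2 farthest. Within the numeric format the rho of this pair did not pass (0.27, permutation test, adjusted p = 0.063), and its r was 0.20 without the 2 farthest. Nr1d1 and Cry1 had r = -0.28 and rho = -0.29 (permutation p = 0.00047 and 0.00042, adjusted p = 0.000705 and 0.00063), at -0.42 and -0.30 within the formats and -0.29 without the 2 farthest. That relation was no longer called with median-of-ratios scaling (r = -0.14, adjusted p = 0.128). Nr1d1 and Per2 gave no relation past the threshold (r = 0.0011, rho = 0.038, permutation p = 0.99 and 0.65), and neither did Per2 and Bmal1 (r = 0.13, rho = 0.14, permutation p = 0.11 and 0.097, adjusted p = 0.132 and 0.116). The last pair changed sign on the residuals of the 10 components, to r = -0.32 (adjusted p = 0.00024), and stood at -0.018 in the numeric format. Within E21 it passed the threshold (r = 0.30, adjusted p = 0.0109, rho adjusted p = 0.0156).

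**Figure D3:**
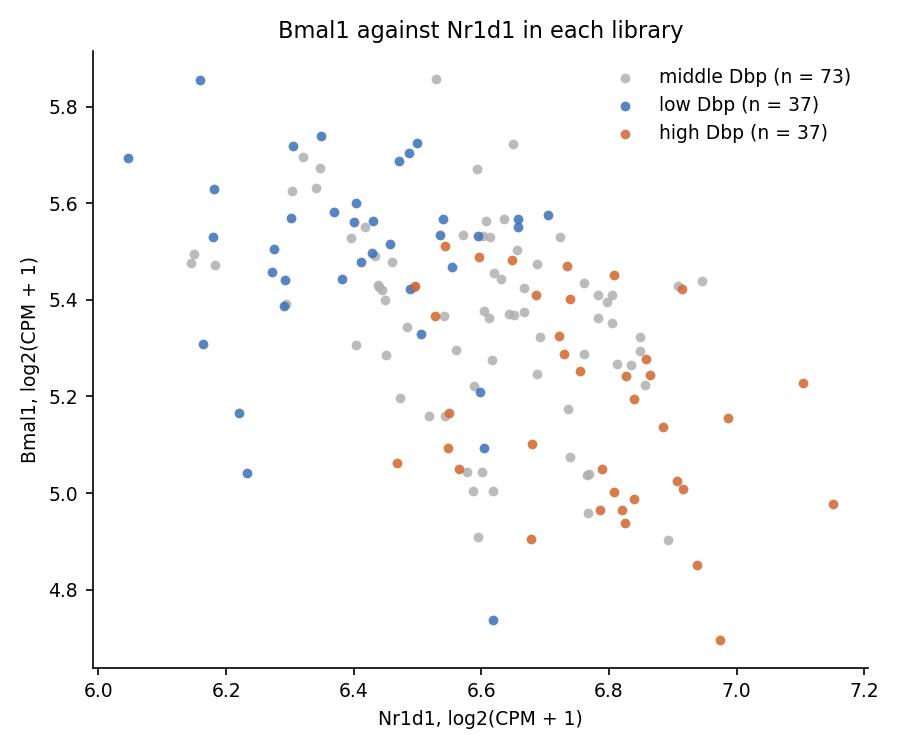
Bmal1 against Nr1d1, both as log2(CPM + 1), in each of 147 libraries coloured by Dbp group. Libraries with more Nr1d1 had less Bmal1 (r = -0.51), and the high-Dbp libraries lie toward more Nr1d1 and less Bmal1 than the low-Dbp ones.

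By their correlation with log2 Dbp over 147 libraries, the 10 genes most like Dbp were Ciart (0.78), Nr1d1 (0.69), Mt1 (0.66), Trnp1 (0.64), Cyb5r3 (0.64), Fbl (0.62), Smim45 (0.62), Caly (0.62), Fbll1 (0.59) and Vstm2l (0.58). The 5 most opposite were Limch1 (-0.61), Mmp14 (-0.59), Tanc1 (-0.58), Hmbox1 (-0.57) and Srgap2 (-0.57). Mt1, a metallothionein that binds zinc and copper, ran from 7.83 to 18.5 CPM (median 11.8) in low-Dbp and from 12.6 to 48.3 CPM (median 22.1) in high-Dbp libraries. It rose by 0.82 (SE 0.087, limma adjusted p = 8.74e-11) and by 0.31 (SE 0.068, limma adjusted p = 0.00681) with the 10 components. Mmp14, a membrane-bound matrix metalloprotease, ran from 6.10 to 11.8 CPM (median 8.94) and from 2.46 to 9.97 CPM (median 5.74). It fell by 0.58 (SE 0.069, limma adjusted p = 4.31e-09), by 0.52 (SE 0.064) with the 10 components by 0.51 (SE 0.092) in the numeric format, by 0.71 (SE 0.10) in E21 and by 0.47 with 2 components, and passed in each of these fits. Trnp1, a nuclear protein of neural progenitors, rose by 0.32 (SE 0.037), 0.18 with the components and 0.26 in the numeric format. Fbl, Smim45, Caly, Fbll1, Vstm2l, Limch1, Tanc1, Hmbox1 and Srgap2 were called between the groups but not with the components. All genes of this paragraph were picked by their correlation with Dbp over libraries that include both groups. Their calls between groups chosen by Dbp are therefore no separate result.

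With the 10 components the calls next after the 4 clock genes were Mmp14, Sphk2 (-0.23), Ccsap (0.18), Tgm2 (-0.51, SE 0.069) and Grik5 (0.19). Tgm2, a transglutaminase, and Cd93 (-0.46, SE 0.071), a receptor of endothelial cells, were also lower without the components, at -0.35 (SE 0.076) and -0.39 (SE 0.066). Grik5, a kainate receptor subunit, was at -0.09 (SE 0.054) without them and did not pass there. Klf9, a hormone-induced factor, and its relative Klf13 changed direction, from -0.44 (SE 0.15) and -0.73 (SE 0.17) to 0.26 (SE 0.050) and 0.26 (SE 0.057), and passed both times. Of the 154 genes called with the components, 65 were also called without them in the same direction.

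Genes around the clock were read as lists, each against the 49.8% of all genes called (21.2% higher and 28.6% lower), and counts near these shares are no result about a list. Of 11 kinases, ligases and partners of the clock, Usp2, a deubiquitinase, rose (0.16, SE 0.036, limma adjusted p = 0.000276) and Btrc (-0.34, SE 0.068), Fbxw11 (-0.11, SE 0.031) and Gsk3b (-0.18, SE 0.056) fell, with a median of -0.02 against -0.03 over all genes, so 4 of 11 were called against 49.8%. With the components only Usp2 was called (0.13, SE 0.034, limma adjusted p = 0.0328). Of 7 tested genes known to be driven through D-boxes, Tspo rose (0.25, SE 0.070) and Pdxk, an activator of vitamin B6 (-0.41, SE 0.096), and Abcb1a, a drug transporter (-0.26, SE 0.086), fell, and none was called with the components. Por, Alas1, Ppara and Gstt2 did not pass, and Cyp7a1 was not tested. Of 17 other clock outputs, 5 rose and 5 fell, with a median of 0.01, so 10 of 17 were called against 49.8%. Herpud1 (0.24, SE 0.035), a protein of the endoplasmic reticulum, and Wee1, a cell cycle kinase (0.21, SE 0.044), rose, and Elovl6, a fatty acid elongase (-0.62, SE 0.10), and Mtss1 (-0.19, SE 0.044) fell. Herpud1 and Klf9 were the 2 called with the components.

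Genes that follow body temperature, which itself cycles with the day, were called about as often as all genes: of 15, 4 rose and 4 fell (8 of 15 against 49.8%), with a median of -0.06. Both cold-induced RNA-binding proteins of the list rose. Cirbp ran from 32.8 to 51.6 CPM (median 41.8) in low-Dbp and from 41.1 to 65.9 CPM (median 50.3) in high-Dbp libraries (0.29, SE 0.038, limma adjusted p = 7.94e-08). It was at 0.17 (SE 0.040, limma adjusted p = 0.0111) with the components and at 0.19 (limma adjusted p = 0.0946), not called, in the numeric format. Rbm3 ran from 20.8 to 53.2 CPM (median 37.5) and from 29.1 to 81.3 CPM (median 45.3) and rose by 0.39 (SE 0.075), by 0.40 (SE 0.076) with the components and by 0.48 (SE 0.11) in the numeric format. Heat shock genes were not of one direction, with Hspe1 at 0.32 (SE 0.067) and Hspa1b at -0.50 (SE 0.11), and with the components neither of these was called. Of the 15 genes that follow body temperature, 4 were called with the components, against 1% of all genes. Of these 4, Cirbp and Rbm3 were higher and the other 2 lower. Of 15 glucocorticoid response genes, 4 rose and 1 fell (Plin4, -0.25), with a median of 0.09, so 5 of 15 were called against 49.8%. With the components Mt1 alone of the 15 was called. The rises included Mt1, Mt2A (0.64, SE 0.10) and Nfkbia (0.35, SE 0.096). Of 16 immediate early genes, switched on by neuronal activity, 4 fell, against 28.6% of all genes lower, and none rose: Fos (-0.65, SE 0.15), Arc (-0.50, SE 0.14), Nr4a2 (-0.86, SE 0.27) and Npas4 (-0.54, SE 0.18). None of them was called with the components, where Fos stood at -0.53 (SE 0.17, limma adjusted p = 0.119). Within the numeric format Fos (-0.92, SE 0.21) and Btg2 were called lower, and within E21 Egr4 and Dusp1, named after their values were seen, were called higher and none of the list lower.

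The largest differences of all were not in the clock. Among genes with at least 5 CPM, the largest rises were those of Gins2, a DNA replication factor (1.13, SE 0.20), Rad52, a DNA repair factor (0.84, SE 0.15), Mt1, Inafm1 (0.75), Hsp90aa1-ps17 (0.70), Tpt1l3 (0.68), Cnbd2 (0.65), Rpl37 (0.65), Mt2A, Ciart, Calcr, the calcitonin receptor (0.62), Nicol1 (0.62), Cbr1l1 (0.61), Eef1a1l1 (0.57) and Rn7sl1 (0.57). The largest falls were those of Klhl34 (-1.90, SE 0.30), Adcy1, an adenylyl cyclase (-1.53, SE 0.24), Rps14-ps7 (-1.47), Grik3, a kainate receptor subunit (-1.24), Zbed6 (-1.22), Slc17a7 (-1.15), Plcxd3 (-1.09), Slc7a14 (-1.08), Shc3 (-1.06), Cds2 (-1.06), Ccn3 (-1.05), Xylt1 (-1.04), Dok6 (-1.02), Sv2c (-1.01) and Lrrc58 (-0.998). Gene copies such as Rps14-ps7, Hsp90aa1-ps17, Eef1a1l1 and Tpt1l3 are uncertain because copies so alike may split reads between them. Of these 30 genes only Mt1 and Ciart were called with the 10 components. All but Ciart entered the computation of the components, so calls that ended there are no separate result. Without the 8 libraries past the fence, the calls of Rpl37, Eef1a1l1 and Rn7sl1 ended, at 0.49, 0.52 and 0.44, and Adcy1 stood at -1.11, Rad52 at 0.55 and Cds2 at -0.66. Adcy1 ran from 19.8 to 103 CPM (median 50.2) in low-Dbp and from 1.95 to 77.9 CPM (median 22.8) in high-Dbp libraries, and its difference was -0.11 (SE 0.081) with the components.

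The direction of the differences went with the length of the gene on the genome. Genes were put in 5 equal groups by span. The group with the shortest span (at most 7.97 kb) had a median difference of 0.10, with 44.4% called higher and 9.75% lower. The group with the longest span (at least 75.5 kb) had a median of -0.14, with 5.97% called higher and 54.2% lower. Genes called higher had a median span of 10.2 kb and genes called lower 52.3 kb, against 24.1 kb over all genes tested. Within E21 the medians of the shortest and longest groups were 0.16 and -0.22, within the numeric format 0.04 and -0.04, and without the 8 libraries 0.08 and -0.09. With the 10 components, which were computed from these genes other than the clock lists, they were 0.0023 and -0.0091.

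**Figure D4:**
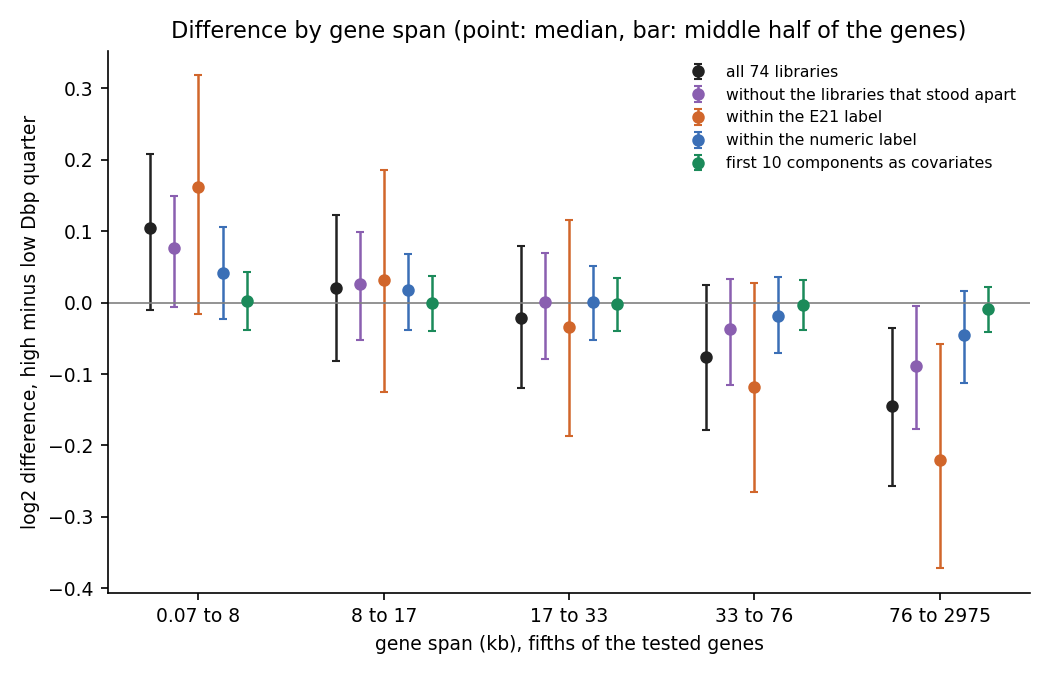
Median log2 difference between high-Dbp and low-Dbp libraries (points) and interquartile range (bars) of 5 equal groups of the 15326 tested genes by span in kb, in 5 fits. The medians fall from 0.10 to -0.14 over all 74 libraries and stay near 0 with the first 10 components as covariates.

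Markers of the tissue and of other cells were read in the same fit, where 49.8% of all genes were called (21.2% higher and 28.6% lower). Genes shared by medium spiny neurons summed to between 5416 and 11485 CPM in low-Dbp and 5472 and 11093 CPM in high-Dbp libraries. Of these 12 genes 2 rose, Ppp1r1b (0.30) and Arpp21 (0.23), and 2 fell, Pde10a (-0.35) and Adcy5 (-0.32). Of the 6 genes of D2 neurons 4 rose, Gpr6 (0.37), Penk (0.24), Adora2a (0.16) and Drd2 (0.15), and of the 7 of D1 neurons Tac1 rose (0.20). All 8 cortical projection neuron genes fell, with a median of -0.74, among them Slc17a7 and Tbr1 (-0.97, SE 0.33). Their sum ran from 48.3 to 1374 CPM (median 559) in low-Dbp and from 26.2 to 1512 CPM (median 326) in high-Dbp libraries. In the 73 libraries in between it ran from 41.6 to 1266 CPM (median 239). The lowest median was thus in these libraries, and the sum did not fall stepwise with Dbp. With the components 0 of 8 were called, against 1% of all genes. These 8 genes entered the computation of the components, so that count is no separate result. Within the numeric format 0 of 8 were called (median -0.57) against 0.261% of all genes, and within E21 1 of 8 (median -0.53) against 46.2%. In bulk RNA, fewer cells of a type and less RNA per cell cannot be told apart. With cortical, oligodendrocyte and astrocyte scores as covariates 12 of the 18 clock genes were called, 6 in each direction, against 56.2% of all genes in that fit. Cry1 (-0.16, adjusted p = 0.000282) and Bhlhe40 (0.17, adjusted p = 0.0486) passed limma's threshold there.

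Markers of glia, vessels and other cells were called in both directions, and their counts too stand against 49.8% of all genes called. Of 10 oligodendrocyte genes Ermn fell (-0.47), of 8 astrocyte genes Gja1 rose (0.13) and Slc1a2 (-0.18) and Slc1a3 (-0.17) fell, and of 10 microglial genes Tyrobp (0.26), C1qb (0.25) and C1qc (0.20) rose. Of 6 genes of oligodendrocyte precursors Gpr17 (-0.23) and Pdgfra (-0.20) fell. Of 7 endothelial genes Slc2a1 (0.16) and Cldn5 (0.19) rose and Flt1 (-0.26) and Tek (-0.23) fell, and of 6 mural genes Rgs5 (-0.76), Myh11 (-0.46) and Pdgfrb (-0.17) fell. None of the 7 meningeal or 7 red cell genes was called, and of 3 choroid plexus and ependymal genes Dynlrb2 rose (0.49). Of 9 interneuron genes Lhx8 (0.38), Sst (0.26) and Slc18a3 (0.21) rose and Nos1 fell (-0.40). Slc18a2 rose (0.17) and Ret fell (-0.22) among the 2 tested genes of midbrain dopamine neurons. All 6 genes of that list together reached 41.4 CPM at most, and Th, Slc6a3, En1 and Chrna6 were under the minimum for the test. Slc17a6 fell (-0.81) beside Rorb in the diencephalic list. Of 7 ribosomal and translation genes 4 rose and of 8 housekeeping genes 5 rose, with medians of 0.18 and 0.12. Of the marker lists of this and the preceding paragraph, Gpr52 of the D2 list (-0.16, SE 0.045, limma adjusted p = 0.0477) was the one gene called with the components. The tested genes of these lists, Rorb apart, entered the components, so calls that ended there are no result about the cells. What part these cells had in the clock gene differences was not tested beyond the fit with cell scores.

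Genes next to Dbp were compared as well. Dbp lies at chr1:105312256-105317205 of GRCr8, with Car11, a carbonic anhydrase relative, ending 604 bases before it and Sphk2, a sphingosine kinase, starting 126 bases past it. Of 13 tested genes within 150 kb, 8 were called, 5 higher and 3 lower, against 49.8% of all genes. Car11 rose by 0.18 (SE 0.042), as did Rpl18 (0.28), Mamstr (0.25), Rasip1 (0.19) and Bcat2 (0.14), while Kcnj14 (-0.16), Grwd1 (-0.12) and Sphk2 fell. Sphk2 ran from 34.5 to 46.5 CPM (median 38.5) in low-Dbp and from 27.9 to 48.5 CPM (median 35.4) in high-Dbp libraries (-0.13, SE 0.033, limma adjusted p = 0.000641). It was at -0.23 (SE 0.030, limma adjusted p = 3.85e-07) with the components, -0.23 (SE 0.039, limma adjusted p = 0.00436) in the numeric and -0.03 (SE 0.051, limma adjusted p = 0.652) in the E21 format. The difference between the formats passed the test (0.20, SE 0.065, limma adjusted p = 0.0330), so the fall of this nearest gene held in the numeric format and was not called in E21. With the components only Sphk2 and Lmtk3 (0.13, SE 0.032) were called of the 13. Whether reads of neighbouring genes were shared was not tested.

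**Figure D5:**
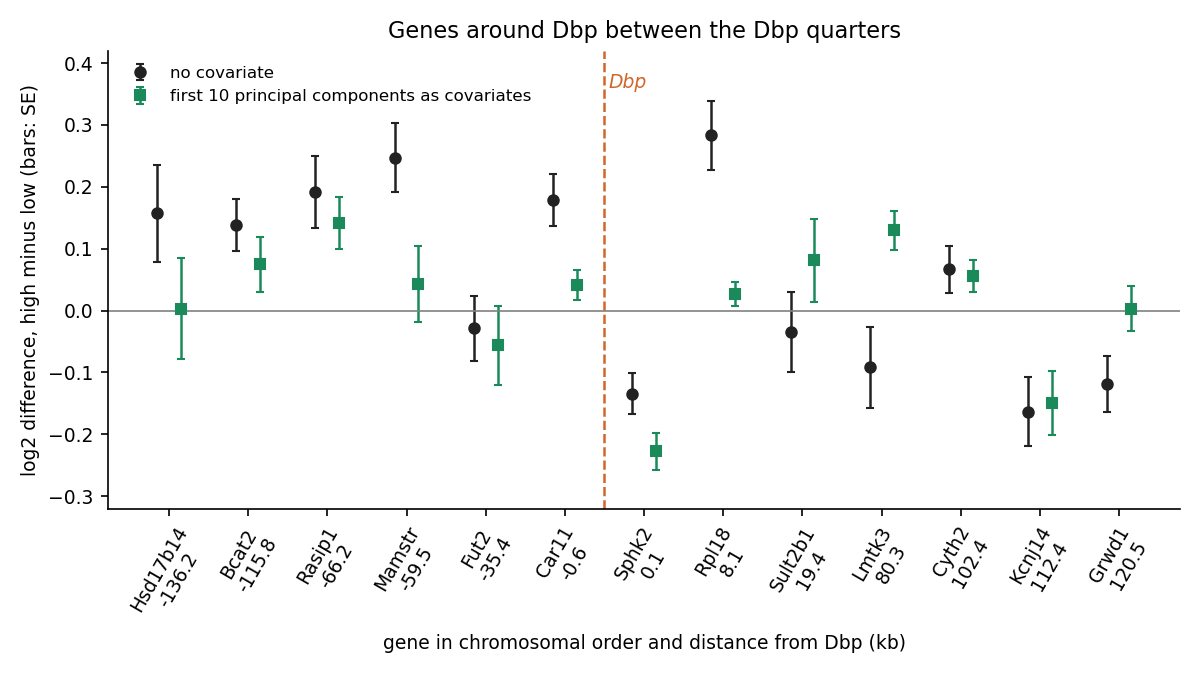
Log2 difference between high-Dbp and low-Dbp libraries (y axis, bars are SE) of the 13 tested genes within 150 kb of Dbp, in chromosomal order with the distance in kb, without covariates and with 10 principal components. Sphk2, the nearest gene past Dbp, is the lowest with the components, at -0.23, and the other genes nearest to Dbp lie near 0 there.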

How the data were processed

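PolyA RNA-seq of the rat nucleus accumbens core was used as 1 deposited table of log2 values for 159 libraries and 38354 genes. Per the labels and the submitters' processing notes the authors quantified with kallisto 0.48, and the deposited values are on a log2 scale, of the expected count after adding 1. Annotation release, strand setting and filters were not found in the labels or notes, so overlapping, antisense and near-identical genes are uncertain. Positions in the table match gene ends of the GRCr8 RefSeq table.

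Values were back-transformed, scaled to CPM and compared as log2(CPM + 1), after a minimum of 100 CPM of Drd1 per library and a mean of 1 CPM per gene. Groups by Dbp were tested with limma 3.58.1 (R 4.3.3, trended, two-sided, no covariate), with Benjamini-Hochberg adjustment over 15326 genes and Dbp left out. Permutation tests drew 100000 resamples, and Fisher's exact tests were run in scipy 1.17.1. The fit was tested on simulated data for this comparison (15326 genes). It recovered 73% of 100 genes changed by 0.3 and 92% of 100 changed by 0.6 on the log2 scale. It called 0.0793% of unchanged genes. Whether these rates hold in the deposited libraries was not tested. There the first principal component held 26.8% of the variance over 147 libraries and had a Pearson r of 0.39 with log2 Dbp. Total expected counts ran from 14.6 to 61.2 M (1000000) per library. The labels tell apart rats but not litters, days or batches, so p-values measure the spread between these libraries.

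The members, the 27 gene lists and the tests were chosen with earlier results of these data known. Named genes are all measured core clock genes, the 15 largest rises and 15 largest falls among genes called with a mean of at least 5 CPM, up to 4 genes of each other list by smallest p, and the 10 most like and 5 most opposite to Dbp; any other gene was named after its values were seen. The alternatives were 16 other scalings, filters, covariates and choices of libraries, and 3 added after the data were examined (the first 2 and first 10 principal components, and without libraries past the fence of the first).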

Additional observations from a re-analysis of the deposited data

Results flagged for a closer look

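The difference between high-Dbp and low-Dbp libraries itself differed between the E21 and the numeric identifier formats for 2304 genes by limma's interaction test, 15.0% of those tested. Values here are the E21 difference minus the numeric difference on the log2 scale, and for the genes named the limma adjusted p lay between 0.0154 and 0.0491. Among clock genes the values were -0.41 for Per3, -0.34 for Clock, -0.25 for Npas2, -0.60 for Rorb and 0.46 for Nfil3. Among the largest rises, the value was 1.43 for Gins2, 0.97 for Rad52, 0.57 for Mt1, 0.86 for Hsp90aa1-ps17, 0.68 for Mt2A, 0.54 for Nicol1 and 1.47 for Eef1a1l1. Eef1a1l1 was at -0.21 in the numeric and 1.26 in the E21 format, and the others were higher in both. Among the largest falls it was -1.92 for Klhl34, -1.58 for Adcy1, -2.57 for Rps14-ps7, -1.43 for Grik3, -1.63 for Zbed6, -1.23 for Plcxd3, -1.58 for Slc7a14, -1.50 for Shc3, -1.41 for Cds2, -1.16 for Xylt1, -1.30 for Dok6, -1.49 for Sv2c and -1.27 for Lrrc58. Rps14-ps7 was at 0.39 in the numeric and -2.18 in the E21 format, and the others were lower in both. Among the other genes named, the value was positive for Dusp1 (0.88), Btg2 (0.65), Sst (0.53), Mamstr (0.36), Fbll1 (0.32), Fbl (0.29) and Sphk2 (0.20). It was negative for Klf13 (-1.21), Rgs5 (-0.91), Klf9 (-0.87), Adcy5 (-0.73), Elovl6 (-0.67), Pdxk (-0.66), Pde10a (-0.61), Lmtk3 (-0.39), Grik5 (-0.39), Btrc (-0.38), Flt1 (-0.38) and Hmbox1 (-0.32). Ciart (0.11, adjusted p = 0.563), Nr1d1 (0.01, adjusted p = 0.953) and Bmal1 (0.01, adjusted p = 0.948) did not pass limma's interaction test. Between the Xist sides, Tmem132d differed by 0.63 (limma adjusted p = 0.0274), the value with more Xist minus that with less.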

How the results depend on the processing

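The 7637 genes called became 1057 between the highest and lowest 1 in 10 libraries by Dbp, 40 within the numeric format, 66 with 2 components and 154 with 10 components as covariates. A slope on Dbp within the middle 73 libraries called 0 genes in limma, the one tool run, with 1051 at an unadjusted p under 0.05. The relation of Nr1d1 and Cry1 was at -0.143 with median-of-ratios scaling, and that of Per2 and Bmal1 at 0.298 within E21 and -0.316 on residuals of 10 components. With no Drd1 minimum 4 named genes changed direction: Npas2 to 0.72, Pde10a to 0.90, Adcy5 to 0.58 and Slc18a2 to -1.31. Apart from the groups being drawn from other libraries or fewer of them, the cause was not tested. All 18 tested clock genes kept direction and side of the threshold with Xist side or total count as covariate, a pseudocount of 0.1 CPM, or the highest and lowest 1 in 3 libraries by Dbp. No paired analysis was possible because the labels give no replicate numbers shared between groups. Low level limits Bmal2, which was under 1 CPM and not tested. Of the 18 tested clock genes the lowest median was 3.81 CPM (Rorb).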
